A study of Mus musculus with 38 samples.

Results

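Csf1, Csf2, Csf3, Il34, Il7, Il15, Tslp and Kitl encode colony-stimulating factors and lymphoid or haematopoietic cytokines that stromal cells can make. Their mRNA was followed in primary mouse embryonic fibroblasts (MEFs), the cells that grow out of dissociated embryos. The 8 genes were chosen by name from the 45706 genes in each of 2 count tables, and all 8 were found in both tables.

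The cells were C57BL/6 MEFs, either homozygous for the knock-in allele named RelA-TA-KI or wild type (WT) at Rela, the gene of the NF-kB subunit RelA. TA is taken to stand for transactivation, a word in the study's title. The change in the protein is not stated in the labels and cannot be read from counts per gene, so the genotype was not checked. Cells of both genotypes spent the night before without serum, and were collected untreated or after TNF at 10 ng/ml, LPS at 100 ng/ml or Poly(I:C) at 20 ug/ml lasting 0.5, 1, 3 or 8 h. The TNF table held 20 libraries, with 2 per genotype at 0, 0.5, 1, 3 and 8 h. The table of LPS and Poly(I:C) held 18 libraries, with 1 for each condition in each genotype, its own untreated libraries among them. The labels do not say whether samples came from separate embryos or cultures, so p-values measure only the spread between these samples, which may be technical in part (the WT replicates with TNF differed in the sex-linked transcripts given below).

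NF-kB is a family of dimeric transcription factors that inflammatory signals release into the nucleus. TNF, a cytokine, acts through its own receptors, LPS is a bacterial product sensed by Toll-like receptor 4, and Poly(I:C) is a synthetic double-stranded RNA that imitates viral RNA. Fibroblasts feed blood and immune cells through secreted factors. Csf1 (M-CSF) and Il34 are both ligands of the macrophage receptor Csf1r. Csf2 (GM-CSF) acts on granulocytes, macrophages and dendritic cells, and Csf3 (G-CSF) drives neutrophil production. Il7 and Tslp act through receptors that share the Il7r chain, with Il2rg as partner for Il7 and Crlf2 for Tslp. Il15, a growth factor of natural killer cells and memory T cells, is presented at the cell surface by Il15ra. Kitl (stem cell factor) is the ligand of Kit on haematopoietic progenitors, mast cells and melanocytes.

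Total counts were 6.72 to 9.59 M per library with TNF and 7.02 to 9.43 M in the remaining libraries. All 10 fibroblast markers (among them Col1a1, Col1a2, Dcn and Pdgfra) had counts in every library and summed to 38424 to 45951 CPM (counts scaled to library size, with TMM factors) in RelA-TA-KI cells given TNF or left untreated and to 31028 to 42359 CPM in the WT cells. The cultures also held macrophage transcripts. The 15 macrophage markers all had counts in every library, and their sum was 1089 to 4084 CPM in RelA-TA-KI and 991 to 2113 CPM in WT in the TNF table, and 3363 to 5387 CPM in RelA-TA-KI and 4175 to 5605 CPM in WT in the other table. Epithelial and keratinocyte markers (8 genes) summed to 29.0 to 127 CPM in RelA-TA-KI and 19.7 to 122 CPM in WT in the TNF table, and to 5.69 to 27.2 CPM in RelA-TA-KI and 5.50 to 9.93 CPM in WT in the other. The 8 endothelial markers summed to 60.6 to 87.9 CPM in RelA-TA-KI and 36.6 to 93.9 CPM in WT with TNF or untreated, and to 31.4 to 772 CPM in RelA-TA-KI and 31.1 to 158 CPM in WT in the other table, where Kdr held up to 756 CPM. Of the 7 skeletal muscle markers the sum was at most 53.3 CPM in RelA-TA-KI and 54.2 CPM in WT. Mast cell markers summed to at most 3.33 CPM. Of the 5 lymphocyte markers Cd8a was at 0 in every library, and the list summed to at most 0.256 CPM. In these bulk samples fewer cells of a type and less RNA per cell cannot be told apart. The libraries also differed in sex-linked RNA. In the TNF table Xist was at 348 to 542 CPM of the total count in both RelA-TA-KI replicates, against 332 to 427 in WT replicate 1 and 2.33 to 3.84 in WT replicate 2, which alone had Ddx3y above 1 CPM. In the other table Xist was at 0.446 to 1.73 CPM in RelA-TA-KI and at 208 to 498 CPM in WT, and Ddx3y was present in both. The part of sex and of these other cell types in the results was not tested.

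In mm10 coordinates Csf1 lies at chr3:107741048-107760469 and Il7 at chr3:7569994-7613760, both on the minus strand. Il15 (chr8:82331637-82403222) and Il34 (chr8:110741829-110805924) share a chromosome, again on the minus strand. Csf2 (chr11:54247271-54249667, minus strand) and Csf3 (chr11:98701263-98703629, plus strand) are both short genes, and Kitl is at chr10:100015630-100100413 on the plus strand.

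Sequences around the genes were read from annotation, since NF-kB acts at promoters and several inflammatory cytokine mRNAs are held short-lived by AU-rich elements. The RefSeq promoter table (build GRCm38.p6) held 3 of the 8 genes, Csf1, Csf2 and Kitl. The 250 bases before each start were searched on both strands for the kB consensus and for the AP-1 motif TGANTCA, and no matches overlapped. Csf1 held a kB match on the strand opposite to the gene at positions -154 to -145, where -1 is the base before the start. A kB match occurred in 3.75% of 27025 promoters in the table and an AP-1 match in 6.87%. Neither motif was in the windows of Csf2 and Kitl. The RefSeq start of Csf2 lies 232 bases upstream of its start in the count table, and the bases between these starts were not searched. That of Kitl lies 191 bases downstream, so most of its window falls after its start in the count table. The absence of a match holds for these windows only. The Csf1 window (chr3:107760470-107760719, minus strand) is printed 5′ to 3′ with the kB match in capitals, as the only window of the 3 that held a match. The part of this match in the Csf1 levels was not tested.
Csf1 promoter: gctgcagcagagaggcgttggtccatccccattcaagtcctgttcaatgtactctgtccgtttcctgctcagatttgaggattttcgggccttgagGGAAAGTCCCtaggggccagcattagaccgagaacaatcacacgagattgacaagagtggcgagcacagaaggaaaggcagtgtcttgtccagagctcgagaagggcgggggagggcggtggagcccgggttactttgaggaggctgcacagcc
The 3′ UTRs of GENCODE M21 were searched for the AU-rich pentamer ATTTA and for the longer TTATTTATT, 1 transcript per gene. Csf2 held 9 pentamers in 317 bases (28.4 per kb, more than 99.9% of 20981 genes) and 4 of the longer motif, a number that 0.26% of genes reached. Csf3 held 6 pentamers in 669 bases (8.97 per kb, more than 98.2% of genes). The other 6 genes had 1.56 (Il7) to 3.61 (Il15) per kb, against a median of 1.14 per kb over all genes. The 30 bases richest in pentamers in each are shown with ATTTA in capitals, since Csf2 and Csf3 were the genes of the 8 that stood near 0 before treatment.
Csf2 3′ UTR: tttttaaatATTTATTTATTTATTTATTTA
Csf3 3′ UTR: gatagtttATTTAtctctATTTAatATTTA

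On the scale of CPM per kb of exon, which allows genes to be set side by side, Csf1 had the highest level of the 8 in every group. Untreated cells of the TNF table had 37.2 CPM per kb of Csf1 in RelA-TA-KI and 51.0 in WT. Kitl came next, at 12.6 CPM per kb in RelA-TA-KI and 11.7 in WT. The other 6 were at most 2.13 CPM per kb in these cells (Tslp in RelA-TA-KI). After 8 h of TNF, Csf1 stood at 176 CPM per kb in RelA-TA-KI and 299 in WT, and Tslp was the next highest at 27.1 and 11.7 CPM per kb in RelA-TA-KI and WT. After 8 h of LPS the RelA-TA-KI library had 299 CPM per kb of Csf1, 51.0 of Tslp, 48.8 of Il15, 7.06 of Kitl and 5.17 of Csf3. The WT library had 451 CPM per kb of Csf1, 111 of Csf3, 111 of Tslp, 29.1 of Csf2 and 28.1 of Il15. Csf3 was thus below Kitl in the RelA-TA-KI library and level with Tslp in the WT library.

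**Figure D1:**
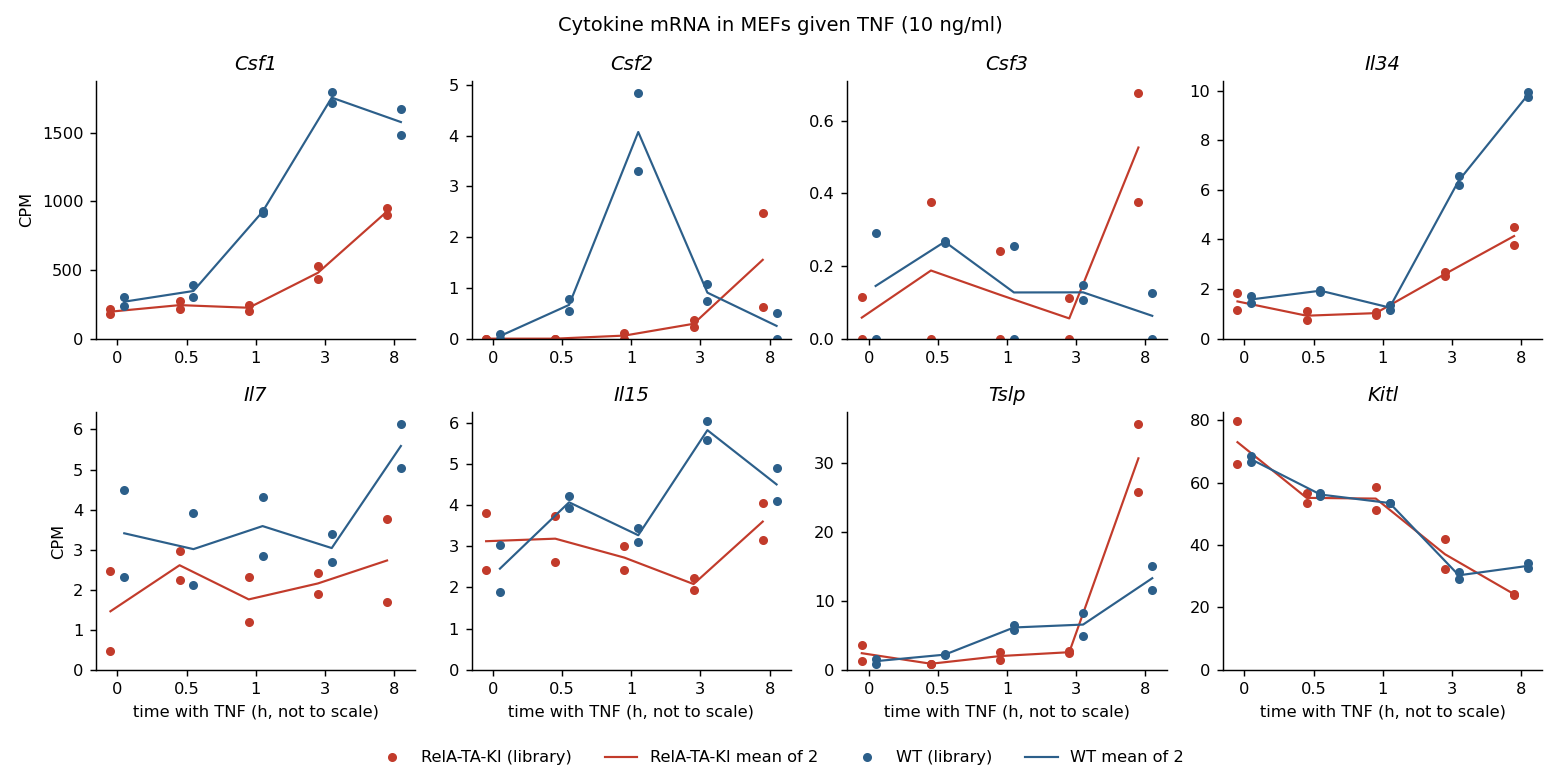
CPM of the 8 genes (y axes, linear, each panel with its own range) against time with TNF in hours, as evenly spaced points. Dots are libraries (2 per genotype and time), lines join the means, RelA-TA-KI is red and drawn left of WT in blue. Csf1 and Il34 at 3 h are lower in RelA-TA-KI, Csf2 peaks at 1 h in WT, and Tslp at 8 h is higher in RelA-TA-KI.

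With TNF, 7 of the 8 genes had enough counts to be tested, and Csf3 did not. A gene is called here where the adjusted p (edgeR quasi-likelihood F test, Benjamini-Hochberg over all 13843 genes tested) was below 0.05. In RelA-TA-KI cells TNF changed 0 of the 7 at 0.5 h (1.07% of all genes were called), 0 at 1 h (3.28% of all), 2 at 3 h (19.0% of all) and 5 at 8 h (42.1% of all). In WT cells it changed 0 at 0.5 h (1.04% of all), 3 at 1 h (3.81% of all), 5 at 3 h (15.7% of all) and 5 at 8 h (20.8% of all). At an unadjusted p under 0.05 the counts of 0 in RelA-TA-KI became 2 at 0.5 h and 1 at 1 h. In WT the count at 0.5 h became 4. Of all 13843 genes, 2177, 2470 and 1238 had such a p in these comparisons, in this order. DESeq2 called 0 of the 7 in each. Csf1, Csf2 and Tslp were the 3 genes called in WT at 1 h, and Il34 and Il15 rose there at 3 h. Kitl was the gene that fell, in both genotypes at 3 and 8 h. The median log2 fold of the 7 at 3 h was 0.57 in RelA-TA-KI and 1.99 in WT, against -0.01 over all genes in both.

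Between the genotypes, 0 of the 7 were called before TNF (0.00722% of all genes) and 0 at 0.5 h (0.195% of all). The call was made for 2 at 1 h (0.91% of all), 3 at 3 h (3.19% of all) and 4 at 8 h (15.9% of all). At an unadjusted p under 0.05 the counts of 0 were 1 before TNF and 4 at 0.5 h, and DESeq2 called 0 at both. Of all genes, 1280 before TNF and 679 at 0.5 h had such a p. All 5 calls at 1 and 3 h were lower in RelA-TA-KI, and at 8 h 3 were lower and Tslp was higher. A separate contrast, the response in RelA-TA-KI minus the response in WT, tests whether the response itself differed. It was called for 0 of the 7 at 0.5 h (0.0506% of all) and for Csf1 at 1 h (0.311% of all). At 3 h it was called for Csf1 (0.932% of all) and at 8 h for Kitl (6.87% of all). At 0.5 h 1 of the 7 and 328 of all genes had an unadjusted p under 0.05, and DESeq2 called 0 of the 7. Between 3 and 8 h, 3 of the 7 moved in RelA-TA-KI (19.2% of all), with Csf1 and Tslp higher and Kitl lower at 8 h. In WT 0 moved (5.48% of all). There 2 of the 7 and 2714 of all genes had an unadjusted p under 0.05, and DESeq2 called 0 of the 7.

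Libraries with the same replicate number deviated together within each genotype. With that number as a block in the fit more genes were called, also over all genes. The block was 1 term shared by the genotypes, so it also pairs same-numbered RelA-TA-KI and WT libraries. The labels do not give that pairing, and replicate 2 differed between the genotypes in sex-linked RNA. Deviations correlated less between genotypes (median r 0.212) than within RelA-TA-KI (0.256) or WT (0.370). Calls between genotypes with the block depend on this pairing. The response in RelA-TA-KI was then called for 2 of the 7 at 0.5 h (Csf1 higher, Kitl lower; 12.4% of all genes) and for Kitl at 1 h (13.5% of all), and in WT for Csf1 at 0.5 h (3.35% of all). Csf1 was called as lower in RelA-TA-KI before TNF (6.92% of all) and at 0.5 h (1.02% of all), and Tslp joined the genes called between genotypes at 1 h (3.93% of all). The difference of responses was called for Csf1 and Tslp at 1 h (0.571% of all) and for Csf1, Il15 and Tslp at 3 h (5.59% of all). Between 3 and 8 h, 5 of the 7 moved in RelA-TA-KI (31.4% of all), and Il34 and Tslp in WT (14.5% of all). No call on the 7 genes was lost with the block.

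Csf1 was the most abundant of the 8 and rose later in RelA-TA-KI. RelA-TA-KI replicates 1 and 2 had 215 and 178 CPM untreated, 273 and 216 at 0.5 h, 247 and 203 at 1 h, 527 and 433 at 3 h, and 953 and 902 at 8 h. WT replicates had 301 and 238 CPM untreated, 392 and 303 at 0.5 h, 932 and 919 at 1 h, 1797 and 1717 at 3 h, and 1675 and 1483 at 8 h. RelA-TA-KI had the lower mean at each of the 5 times, and without the replicate block the difference was called at 1, 3 and 8 h. On the log2 scale the gap was widest at 1 h, and in CPM at 3 h. In RelA-TA-KI the log2 response was 0.20 at 1 h (adjusted p = 0.55, SE 0.16), 1.29 at 3 h (adjusted p = 0.00016, SE 0.16) and 2.24 at 8 h (adjusted p = 2.1e-07, SE 0.16). In WT it was 1.78 at 1 h (adjusted p = 4.9e-06, SE 0.16), 2.71 at 3 h (adjusted p = 5.9e-08, SE 0.17) and 2.55 at 8 h (adjusted p = 9.3e-08, SE 0.17). RelA-TA-KI was thus still near its untreated level at a time when WT had already risen. The genotype difference was -2.04 at 1 h (log2, adjusted p = 4.4e-06, SE 0.16), -1.87 at 3 h (adjusted p = 6.3e-06, SE 0.16) and -0.77 at 8 h (adjusted p = 0.0043, SE 0.16). The response itself differed by -1.58 at 1 h (adjusted p = 0.0038, SE 0.23) and -1.42 at 3 h (adjusted p = 0.006, SE 0.22). At 8 h the difference of responses was -0.31 (adjusted p = 0.43, SE 0.22). Between 3 and 8 h Csf1 rose by 0.95 in RelA-TA-KI (log2, adjusted p = 0.001, SE 0.16), and the change in WT was -0.15 (adjusted p = 0.66, SE 0.15). With the replicate block the difference before TNF, -0.45 in both fits, was also called (adjusted p = 0.0026, against 0.51 without it). The calls on Csf1 in the TNF table held in all 25 alternative fits.

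Il34, the other ligand of Csf1r, stood far below Csf1 and also reached a lower level in RelA-TA-KI. RelA-TA-KI replicates had 1.84 and 1.16 CPM untreated, 0.75 and 1.10 at 0.5 h, 0.964 and 1.09 at 1 h, 2.54 and 2.67 at 3 h, and 3.77 and 4.50 at 8 h. WT replicates had 1.45 and 1.71 CPM untreated, 1.89 and 1.98 at 0.5 h, 1.15 and 1.36 at 1 h, 6.19 and 6.55 at 3 h, and 9.73 and 9.93 at 8 h. The untreated values overlapped, and the RelA-TA-KI mean was lower at each later time, with the difference called at 3 and 8 h. Il34 rose in RelA-TA-KI at 8 h (log2 1.46, adjusted p = 0.00029, SE 0.24) and in WT at 3 h (1.99, adjusted p = 4.6e-05, SE 0.23) and 8 h (2.61, adjusted p = 1.8e-06, SE 0.23). In RelA-TA-KI at 3 h the log2 response was 0.80 (adjusted p = 0.085, SE 0.26). The log2 fold of RelA-TA-KI over WT was -1.29 at 3 h (adjusted p = 0.0029, SE 0.22) and -1.24 at 8 h (adjusted p = 0.00083, SE 0.20). The difference of responses did not pass the threshold at either time, with -1.19 at 3 h (adjusted p = 0.29, SE 0.36) and -1.15 at 8 h (adjusted p = 0.1, SE 0.35). The call at 3 h between genotypes was lost when only the groups of that contrast were fitted (adjusted p 0.001 to 0.1 over 25 alternatives).

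**Figure D2:**
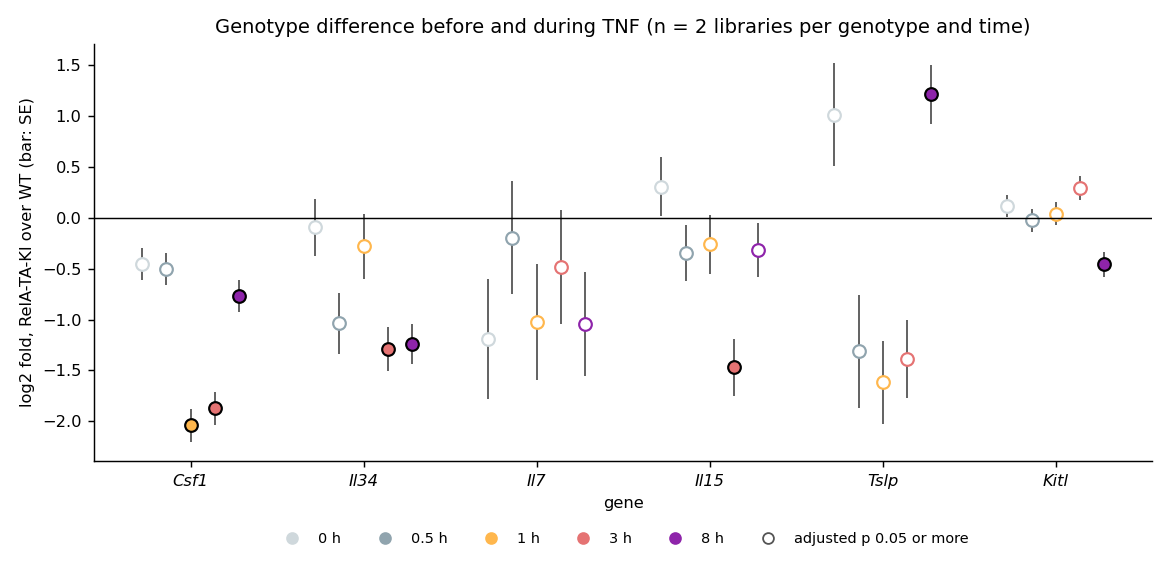
Log2 fold of RelA-TA-KI over WT (y axis, bars are SE) for 6 of the genes before TNF and at 0.5, 1, 3 and 8 h (n = 2 libraries per genotype and time). Filled points have an adjusted p below 0.05. Csf1 lies lowest at 1 h (-2.04), Il34 and Il15 are lower at 3 h, and Tslp is higher at 8 h (1.21).

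Csf2 was close to absent before TNF and came on at different times in the genotypes. Its counts in the RelA-TA-KI replicates were 0 and 0 untreated, 0 and 0 at 0.5 h, 1 and 0 at 1 h, 3 and 2 at 3 h, and 5 and 22 at 8 h. In the WT replicates they were 0 and 1 untreated, 4 and 6 at 0.5 h, 26 and 39 at 1 h, 5 and 10 at 3 h, and 0 and 4 at 8 h. WT was highest at 1 h, at 3.31 and 4.83 CPM, and RelA-TA-KI at 8 h, at 0.628 and 2.48 CPM. Ratios of such counts are given with exact 95% binomial intervals, which cover counting error only, as does the floor of 3 counts over a group used where a group is at 0. In RelA-TA-KI at 8 h the 27 counts stood 8.96-fold above the floor of the untreated group, which had 0. The lower 95% bound of the ratio was 6.80 (edgeR adjusted p = 0.004). In WT at 1 h the 65 counts were 68.6 times the untreated level, which rests on 1 count (11.9 to 2750, adjusted p = 0.0051). Without the untreated WT replicate 2, which holds that count, the adjusted p was 0.062 (5.2e-10 to 0.062 over 25 alternatives). RelA-TA-KI over WT was 0.0148 at 1 h (0.0004 to 0.0856), on 1 count against 65 (adjusted p = 0.014). This call was lost without RelA-TA-KI 1 h replicate 1 (adjusted p = 0.12), without RelA-TA-KI 1 h replicate 2 (adjusted p = 0.18) or without WT 1 h replicate 2 (adjusted p = 0.098), and the range over 25 alternatives was 1.2e-09 to 0.18. The fitted log2 differences without these libraries were -8.06, -4.90 and -5.45. At 8 h the order was the other way round, with RelA-TA-KI at 6.32 times WT (2.20 to 24.9) on 27 counts against 4. That difference missed the threshold (adjusted p = 0.073, and 0.018 with the replicate block), and RelA-TA-KI replicate 2 held 22 of the 27 counts.

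Csf3 was not detectable above a few counts with TNF in either genotype. RelA-TA-KI libraries had 0 to 6 counts and WT libraries 0 to 2, and the highest were the RelA-TA-KI replicates at 8 h, with 3 and 6 counts (0.377 and 0.676 CPM). These 9 counts stood against 1 in WT at 8 h, a ratio of 8.43 (1.17 to 369), with no test across libraries.

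Tslp, a cytokine best known from barrier epithelium, changed its order between the genotypes with time. RelA-TA-KI replicates had 1.23 and 3.59 CPM untreated, 0.875 and 0.880 at 0.5 h, 2.53 and 1.46 at 1 h, 2.66 and 2.45 at 3 h, and 25.8 and 35.7 at 8 h. WT replicates had 1.60 and 0.908 CPM untreated, 2.16 and 2.24 at 0.5 h, 5.85 and 6.44 at 1 h, 4.87 and 8.27 at 3 h, and 11.5 and 15.1 at 8 h. The RelA-TA-KI mean was the lower at 0.5, 1 and 3 h and the higher at 8 h. Without the replicate block only the difference at 8 h was called. In RelA-TA-KI Tslp rose at 8 h (log2 3.65, adjusted p = 2.5e-06, SE 0.35) and stood at 0.07 at 3 h (adjusted p = 0.93, SE 0.44). The change between 3 and 8 h was 3.58 in RelA-TA-KI (adjusted p = 2.2e-05, SE 0.35) and 0.99 in WT (adjusted p = 0.091, SE 0.32). In WT Tslp rose at 1 h (2.34, adjusted p = 0.0066, SE 0.45), 3 h (2.46, adjusted p = 0.0015, SE 0.44) and 8 h (3.45, adjusted p = 3.7e-05, SE 0.41). Without the untreated WT replicate 2 the response in WT at 1 h was 1.94 (adjusted p = 0.14, 4e-11 to 0.14 over 25 alternatives). RelA-TA-KI was higher than WT at 8 h by 1.21 (log2, adjusted p = 0.012, SE 0.29). Without RelA-TA-KI 8 h replicate 2 this was 0.96 (adjusted p = 0.13) and without WT 8 h replicate 1 it was 1.02 (adjusted p = 0.099), within 1.5e-07 to 0.13 over 25 alternatives. The earlier differences missed the threshold, at -1.61 at 1 h (adjusted p = 0.11, SE 0.41) and -1.39 at 3 h (adjusted p = 0.072, SE 0.38), and were called with the replicate block (adjusted p = 0.011 and 0.0095). The differences of responses missed it too, at -2.62 at 1 h (adjusted p = 0.26, SE 0.65), -2.40 at 3 h (adjusted p = 0.12, SE 0.64) and 0.20 at 8 h (adjusted p = 0.89, SE 0.62). With the block those at 1 and 3 h were called (adjusted p = 0.044 and 0.016). The macrophage marker sum was also highest in RelA-TA-KI at 8 h, at 2145 and 4084 CPM against 1317 and 2113 CPM in WT. The sum of the 8 epithelial and keratinocyte markers also stood apart at 8 h, at 92.6 and 106 CPM in RelA-TA-KI and 24.5 and 46.1 CPM in WT. At 1 h that sum was 127 and 92.0 CPM in RelA-TA-KI and 122 and 19.7 CPM in WT. In the TNF response at 8 h 0 of these 8 markers was called in either genotype (42.1% of all genes in RelA-TA-KI and 20.8% in WT). The part of these cells in the difference was not tested.

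Il15 changed little with TNF, and most at 3 h. RelA-TA-KI replicates had 3.81 and 2.43 CPM untreated, 2.63 and 3.74 at 0.5 h, 3.01 and 2.43 at 1 h, 1.93 and 2.23 at 3 h, and 3.14 and 4.05 at 8 h. WT replicates had 1.89 and 3.03 CPM untreated, 3.92 and 4.21 at 0.5 h, 3.44 and 3.10 at 1 h, 6.05 and 5.59 at 3 h, and 4.10 and 4.90 at 8 h. At 3 h the RelA-TA-KI libraries were below all of their own other values, while the WT libraries were above all of theirs. Il15 rose in WT at 3 h (log2 1.2, adjusted p = 0.0078, SE 0.27), and without the untreated WT replicate 1 this was 0.94 (adjusted p = 0.067, 0.0023 to 0.098 over 25 alternatives). In RelA-TA-KI the response at 3 h was -0.57 (adjusted p = 0.19, SE 0.30). The log2 fold of RelA-TA-KI over WT at 3 h was -1.47 (adjusted p = 0.0076, SE 0.28). That call was lost without RelA-TA-KI 3 h replicate 1 (-1.38, adjusted p = 0.094), RelA-TA-KI 3 h replicate 2 (-1.58, adjusted p = 0.061) or WT 3 h replicate 2 (-1.53, adjusted p = 0.051), within 0.00025 to 0.094 over 25 alternatives. The difference of responses at 3 h was -1.77 (adjusted p = 0.059, SE 0.40), and it was called with the replicate block (adjusted p = 0.017). In WT at 8 h the response of 0.83 (SE 0.28) was just inside the threshold (adjusted p = 0.048), and the call was lost in 19 of 25 alternatives (adjusted p 0.034 to 0.25).

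Il7, the survival factor of developing lymphocytes, showed no called change with TNF. RelA-TA-KI libraries ranged from 0.464 to 3.77 CPM over the 5 times and WT libraries from 2.11 to 6.15 CPM. The 2 untreated RelA-TA-KI replicates were far apart, at 2.46 and 0.464 CPM. The log2 responses at 8 h were 0.90 in RelA-TA-KI (adjusted p = 0.25, SE 0.60) and 0.75 in WT (adjusted p = 0.33, SE 0.50). The genotype difference was -1.19 before TNF (adjusted p = 0.55, SE 0.59) and -1.04 at 8 h (adjusted p = 0.19, SE 0.51), both with wide SEs at these low counts.

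Kitl was the one gene of the 8 that fell with TNF. RelA-TA-KI replicates had 66.1 and 79.7 CPM untreated, 53.4 and 56.8 at 0.5 h, 51.2 and 58.5 at 1 h, 32.3 and 41.8 at 3 h, and 24.0 and 24.4 at 8 h. WT replicates had 66.4 and 68.4 CPM untreated, 55.8 and 56.5 at 0.5 h, 53.6 and 53.3 at 1 h, 29.0 and 31.5 at 3 h, and 32.5 and 34.1 at 8 h. The RelA-TA-KI mean was near that of WT up to 1 h, higher at 3 h and lower at 8 h, and only the difference at 8 h was called. With the replicate block the falls at 0.5 h in RelA-TA-KI (-0.40, adjusted p = 0.0032) and at 1 h in RelA-TA-KI (-0.41, adjusted p = 0.0025) and WT (-0.33, adjusted p = 0.016) were called as well. In RelA-TA-KI the log2 response was -0.98 at 3 h (adjusted p = 8.4e-05, SE 0.11) and -1.59 at 8 h (adjusted p = 2.1e-07, SE 0.12). In WT it was -1.15 at 3 h (adjusted p = 9.5e-06, SE 0.12) and -1.02 at 8 h (adjusted p = 2e-05, SE 0.11). Between 3 and 8 h Kitl changed by -0.61 in RelA-TA-KI (adjusted p = 0.003, SE 0.12) and by 0.14 in WT (adjusted p = 0.6, SE 0.12). The genotype difference at 8 h was -0.46 (adjusted p = 0.02, SE 0.12). It kept its size but lost the call without any 1 of the 4 libraries at 8 h, at -0.45 and -0.47 without RelA-TA-KI replicates 1 and 2 (adjusted p = 0.078 and 0.1) and at -0.49 and -0.42 without WT replicates 1 and 2 (adjusted p = 0.054 and 0.096), within 0.0021 to 0.1 over 25 alternatives. The difference of responses at 8 h was -0.57 (adjusted p = 0.049, SE 0.16), a call lost in 17 of 25 alternatives (adjusted p 0.0041 to 0.19).

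With LPS and Poly(I:C) all 8 genes could be tested, out of 14136. Each condition had 1 library per genotype, so responses were fitted over both genotypes together and the genotype difference over several conditions together. The p-values then measure how a response varied with genotype, or how the genotype difference varied over conditions, and not a spread between replicates. The LPS response over both genotypes was called for 0 of the 8 at 1 h (0.927% of all genes). It was called for 6 at 3 h (43.7% of all) and 8 at 8 h (61.9% of all). At 1 h 1 of the 8 and 1065 of all genes had an unadjusted p under 0.05, and DESeq2 called 0 of the 8. The Poly(I:C) response was called for 3 at 3 h (17.9% of all) and 5 at 8 h (48.9% of all). A response of 1 genotype alone can be missed by this fit. At 1 h of LPS the log2 ratio of Csf1 to untreated was 1.46 in WT and 0.14 in RelA-TA-KI, in 1 library each. In WT, 1 of the 8 had an absolute log2 ratio of at least 1 with at least 5 CPM there (1.83% of all genes). In RelA-TA-KI 0 did (1.17% of all). At 8 h of LPS 7 rose and Kitl fell, and at 8 h of Poly(I:C) Csf1, Il34, Il7, Il15 and Tslp rose. Scaling by total counts in place of TMM moved the median log2 response of all genes to -0.49 at 3 h and -0.75 at 8 h of LPS and to -0.25 at 3 h and -0.53 at 8 h of Poly(I:C), against -0.01, -0.06, -0.01 and -0.04 with TMM. With so many genes called, the members' counts at 8 h stand on a high background. LPS and Poly(I:C) differed for 2 of the 8 at 3 h (8.69% of all) and 3 at 8 h (12.5% of all). Csf3 and Tslp were higher with LPS at both times and Csf2 at 8 h.

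**Figure D3:**
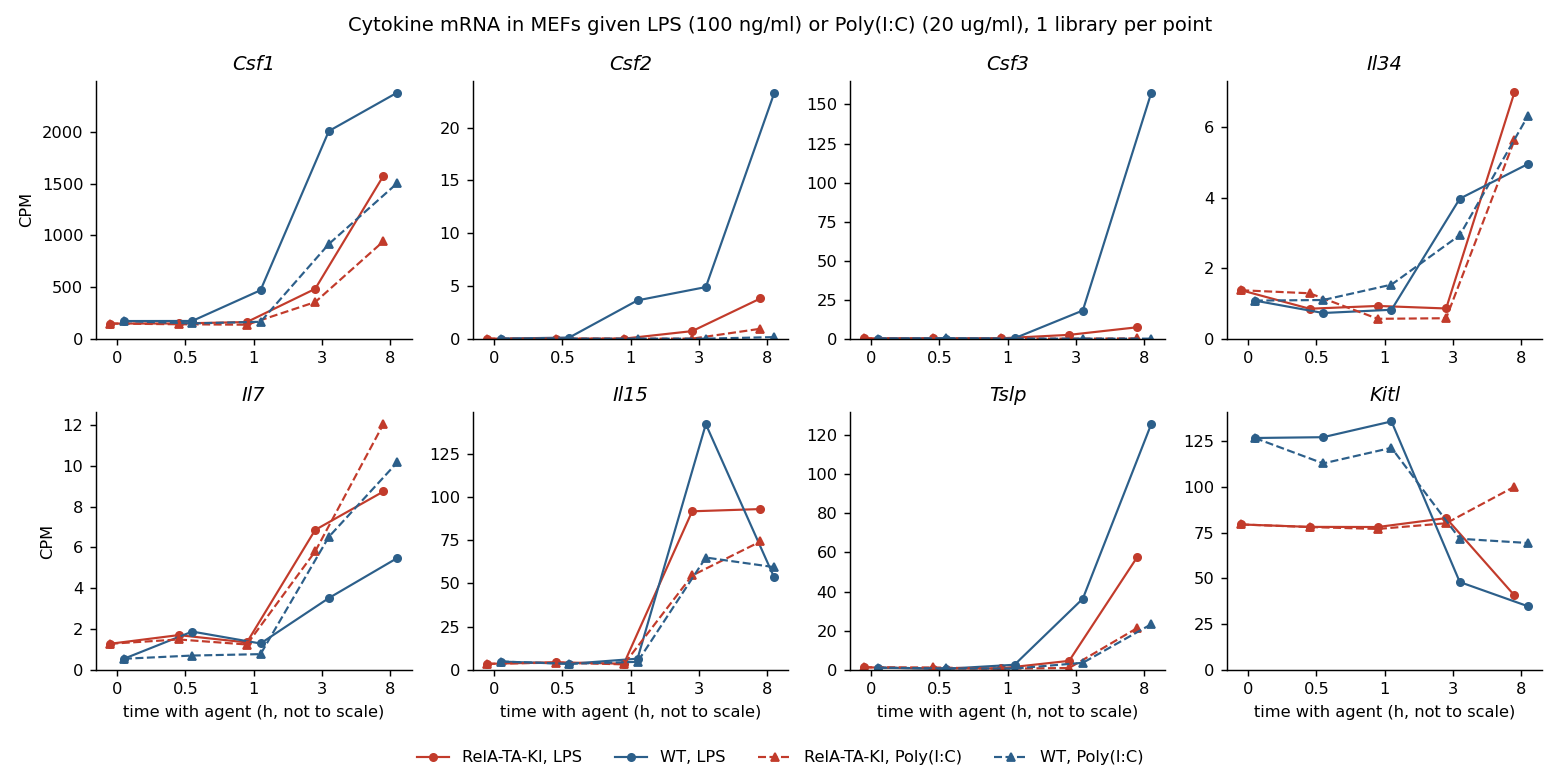
CPM of the 8 genes (y axes, linear, each panel with its own range) against time with LPS (circles, solid) or Poly(I:C) (triangles, dashed) in hours, as evenly spaced points, 1 library per point. RelA-TA-KI is red and drawn left of WT in blue, and both agents start from the same untreated library. Csf3 reaches 7.31 CPM in RelA-TA-KI and 157 CPM in WT after 8 h of LPS, and Il7 and Il15 rise with both agents in both genotypes.

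Over all 9 conditions, 4 of the 8 were called between the genotypes, all lower in RelA-TA-KI (15.6% of all genes). Over the 4 LPS times it was 3, all lower (6.16% of all), and over the 4 Poly(I:C) times 0 (3.48% of all). For Poly(I:C), 0 of the 8 and 2390 of all genes had an unadjusted p under 0.05, and DESeq2 called 0 of the 8. The difference between these 2 genotype effects was called for 0 of the 8 and for 0 of all 14136 genes (0.0% of all; 532 genes and 2 of the 8 had an unadjusted p under 0.05, and DESeq2 called 0), so a genotype effect particular to LPS was not shown. In single conditions a gene counts as past the fold with an absolute log2 ratio of CPM of at least 1 and at least 5 CPM in 1 of the libraries, without a test. RelA-TA-KI over WT was past it for 1 of the 8 at 1 h of LPS (1.97% of all genes), 3 at 3 h (4.17% of all) and 3 at 8 h (7.16% of all), and for 1 at 3 h of Poly(I:C) (2.33% of all) and 0 at 8 h (7.28% of all). The 8 ratios past the fold were all lower in RelA-TA-KI.

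Csf1 with LPS stood at 146, 147, 161, 482 and 1578 CPM in RelA-TA-KI at 0, 0.5, 1, 3 and 8 h, against 171, 171, 469, 2010 and 2382 CPM in WT. The Poly(I:C) libraries had 139, 135, 354 and 943 CPM of Csf1 in RelA-TA-KI at 0.5, 1, 3 and 8 h, against 147, 163, 917 and 1505 CPM in WT. RelA-TA-KI was the lower library in all 9 conditions, by the least at 0.5 h of Poly(I:C) and by the most at 3 h of LPS. The log2 ratio was -1.54 at 1 h and -2.06 at 3 h of LPS and -1.37 at 3 h of Poly(I:C). Over the 9 conditions the difference was -0.78 (log2, adjusted p = 0.02, SE 0.20), and without the 1 h LPS libraries it was -0.68 (adjusted p = 0.05, 0.0012 to 0.05 over 12 alternatives). Over both genotypes Csf1 rose by 3.60 at 8 h of LPS (log2, adjusted p = 3.1e-05, SE 0.45) and by 2.89 at 8 h of Poly(I:C) (adjusted p = 0.00025, SE 0.44).

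Csf3 rose with LPS and stood far lower in RelA-TA-KI. With LPS it had 2, 2, 2, 17 and 46 counts in RelA-TA-KI at 0, 0.5, 1, 3 and 8 h, against 1, 0, 2, 118 and 919 counts in WT. With Poly(I:C) no library of either genotype had more than 3 counts. At 8 h of LPS this was 7.31 CPM in RelA-TA-KI and 157 CPM in WT. RelA-TA-KI over WT was 0.135 at 3 h (95% interval of the counts 0.0759 to 0.225) and 0.0465 at 8 h (0.0338 to 0.0625). Over both genotypes the response to LPS was called at 3 h (adjusted p = 0.00087) and 8 h (adjusted p = 1.1e-05). The genotype difference was -3.40 over 9 conditions (log2, adjusted p = 0.0015, SE 0.54) and -3.67 over the 4 LPS times (adjusted p = 0.0037, SE 0.50). The libraries at 8 h of LPS carry much of it. Without them the values were -1.81 (adjusted p = 0.075, 6.1e-05 to 0.9 over 12 alternatives) and -2.36 (adjusted p = 0.089, 1.8e-05 to 0.64 over 12 alternatives). DESeq2 gave -0.26 (adjusted p = 0.9) and -1.66 (adjusted p = 0.64) for the same contrasts.

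Csf2 also answered to LPS. It had 0, 0, 0, 5 and 24 counts in RelA-TA-KI at 0, 0.5, 1, 3 and 8 h, against 0, 1, 31, 32 and 136 counts in WT. Poly(I:C) gave no count in either genotype before 8 h, and then 6 counts in RelA-TA-KI and 1 in WT. In WT the level was 3.63 CPM at 1 h and 23.3 CPM at 8 h of LPS. Over both genotypes the response was called at 3 h (adjusted p = 0.015, 0.17 by DESeq2, 0.0028 to 0.17 over 10 alternatives) and 8 h (adjusted p = 0.00064). LPS exceeded Poly(I:C) at 8 h (adjusted p = 0.023, 0.58 by DESeq2, 0.0031 to 0.58 over 10 alternatives). At 1 h WT stood 11.7-fold above the floor of RelA-TA-KI, which had 0 counts (upper 95% bound of the ratio to WT 0.111). The ratio of RelA-TA-KI to WT was 0.146 at 3 h (0.0444 to 0.377) and 0.164 at 8 h (0.102 to 0.254). The genotype difference over the 4 LPS times was -3.01 (log2, adjusted p = 0.011, SE 0.45), and without the 3 h libraries it was -3.08 (adjusted p = 0.055, 0.00023 to 0.77 over 12 alternatives). DESeq2 gave -3.61 for it (adjusted p = 0.77). Over 9 conditions it was -2.53 (adjusted p = 0.029, SE 0.62), a call lost in 5 of 12 alternatives (adjusted p 0.004 to 0.74). These were DESeq2 (-1.30) and the fits without the LPS libraries at 0.5 h (-2.52), 1 h (-2.13), 3 h (-2.47) or 8 h (-2.43).

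Tslp with LPS stood at 1.28, 0.637, 0.722, 4.57 and 57.8 CPM in RelA-TA-KI at 0, 0.5, 1, 3 and 8 h, against 1.08, 0.520, 2.58, 36.4 and 126 CPM in WT. With Poly(I:C) it reached 21.4 CPM in RelA-TA-KI and 23.3 CPM in WT at 8 h. Epithelial and keratinocyte markers summed to 27.2 CPM in RelA-TA-KI and 8.38 CPM in WT at 8 h of LPS, in 1 library each. The part of these cells in the Tslp levels was not tested. With LPS the RelA-TA-KI library had less Tslp at both late times, with log2 ratios of -2.93 at 3 h and -1.11 at 8 h. In the TNF table, normalized on its own, RelA-TA-KI had more Tslp than WT at 8 h. The genotype difference over the 4 LPS times was -1.72 (adjusted p = 0.026, SE 0.38), and it was -1.71 without the 1 h libraries (adjusted p = 0.07) and -1.11 without the 3 h libraries (adjusted p = 0.14), within 0.002 to 0.14 over 12 alternatives. Over 9 conditions it was -1.08 (adjusted p = 0.045, SE 0.33), a call lost in 7 of 12 alternatives (adjusted p 0.016 to 0.12). Without the LPS libraries at 0.5, 1, 3 or 8 h it was -1.12, -1.03, -0.66 and -1.05, without the Poly(I:C) libraries at 1 or 3 h it was -1.10 and -1.02, and DESeq2 gave -0.86. Over both genotypes Tslp rose by 3.91 at 3 h of LPS (adjusted p = 0.00065, SE 0.68), by 6.24 at 8 h of LPS (adjusted p = 6e-06, SE 0.64) and by 4.33 at 8 h of Poly(I:C) (adjusted p = 0.00029, SE 0.67). LPS exceeded Poly(I:C) by 3.04 at 3 h (adjusted p = 0.019, SE 0.64) and by 1.91 at 8 h (adjusted p = 0.021, SE 0.46).

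Il15 rose with both agents at 3 and 8 h. With LPS it stood at 3.43, 4.35, 3.51, 91.8 and 93.1 CPM in RelA-TA-KI at 0, 0.5, 1, 3 and 8 h, against 4.77, 3.43, 6.44, 142 and 53.5 CPM in WT. With Poly(I:C) it stood at 54.6 and 74.3 CPM in RelA-TA-KI at 3 and 8 h, against 65.0 and 59.5 CPM in WT. RelA-TA-KI was the lower library at 3 h and the higher at 8 h with both agents, in 1 library each and without a test. Over both genotypes the log2 response was 4.82 at 3 h (adjusted p = 7.5e-07, SE 0.36) and 4.16 at 8 h (adjusted p = 1.5e-06, SE 0.36) with LPS. It was 3.86 (adjusted p = 9.5e-06, SE 0.35) and 4.02 (adjusted p = 3.4e-06, SE 0.36) at these times with Poly(I:C). The genotype difference over 9 conditions was -0.06 (adjusted p = 0.84, SE 0.16).

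Il7 rose with both agents too. It stood at 1.28 CPM in the untreated RelA-TA-KI library and 0.540 CPM in the untreated WT library. With LPS it reached 6.85 and 8.74 CPM in RelA-TA-KI at 3 and 8 h, against 3.51 and 5.47 CPM in WT. With Poly(I:C) it reached 5.80 and 12.0 CPM in RelA-TA-KI, against 6.52 and 10.2 CPM in WT. Over both genotypes the log2 response at 8 h was 2.96 with LPS (adjusted p = 2.3e-05, SE 0.36) and 3.62 with Poly(I:C) (adjusted p = 5.3e-06, SE 0.34), and the genotype difference over 9 conditions was 0.42 (adjusted p = 0.1, SE 0.16). Il34 stayed between 0.563 and 1.53 CPM until 1 h and at 3 h was at 0.857 CPM with LPS and 0.580 CPM with Poly(I:C) in RelA-TA-KI, against 3.97 and 2.94 CPM in WT. At 8 h it had 6.99 CPM with LPS and 5.63 CPM with Poly(I:C) in RelA-TA-KI, against 4.96 and 6.33 CPM in WT. Over both genotypes Il34 rose at 8 h by 2.31 with LPS (adjusted p = 0.0041, SE 0.57) and by 2.28 with Poly(I:C) (adjusted p = 0.006, SE 0.57). The genotype difference over 9 conditions was -0.38 (adjusted p = 0.44, SE 0.30).

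Kitl started at 79.5 CPM in the RelA-TA-KI library and 127 CPM in the WT library of this table. With LPS it stood at 83.0 and 40.7 CPM in RelA-TA-KI at 3 and 8 h, against 48.0 and 34.7 CPM in WT. With Poly(I:C) it stood at 80.1 and 100 CPM in RelA-TA-KI, against 71.7 and 69.3 CPM in WT. The RelA-TA-KI library was above its untreated level at 8 h of Poly(I:C) with TMM scaling (log2 0.33) and below it with total count scaling (-0.29), and the WT library was below its own with both (-0.87 and -1.22). Over both genotypes Kitl fell by 1.42 at 8 h of LPS (log2, adjusted p = 0.0054, SE 0.37), and the value for Poly(I:C) was -0.25 (adjusted p = 0.59, SE 0.35). The genotype difference over 9 conditions was -0.21 (adjusted p = 0.45, SE 0.17).

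The receptors and signalling genes of these cytokines were followed from lists of names. Of 12 receptor genes tested in the TNF table, 5 rose and 1 fell at 8 h in RelA-TA-KI, and 3 rose and 1 fell in WT, where 42.1% of all genes were called in RelA-TA-KI and 20.8% in WT (median log2 0.58 in RelA-TA-KI and 0.04 in WT, against -0.02 and -0.01 over all genes). The gene that fell was Sdc1, and its call in RelA-TA-KI was lost in 15 of 25 alternatives (adjusted p 0.0022 to 0.22). Il15ra, which presents Il15, averaged 6.92 ± 1.24 CPM in RelA-TA-KI and 24.1 ± 1.51 CPM in WT at 3 h (SD, n = 2 each), on untreated levels of 2.87 ± 0.286 and 2.02 ± 0.429 CPM. It rose by 1.27 in RelA-TA-KI at 3 h (adjusted p = 0.0041, SE 0.25) and by 3.60 in WT (adjusted p = 2.2e-07, SE 0.25), and the difference of responses was -2.33 (adjusted p = 0.0062, SE 0.37). Without the untreated RelA-TA-KI replicate 2 the response in RelA-TA-KI was 1.16 (adjusted p = 0.055, 2.4e-05 to 0.055 over 25 alternatives). Il15 and its receptor chain were thus both lower in RelA-TA-KI at 3 h. Csf2rb, the signalling chain of the Csf2 receptor, rose at 8 h in RelA-TA-KI (2.13, adjusted p = 0.0004, SE 0.37) and in WT (1.99, adjusted p = 0.0025, SE 0.40). Csf2rb2, of the same list, rose at 8 h in RelA-TA-KI (2.06, adjusted p = 0.00038, SE 0.355). Its genotype difference at 8 h was 1.55 (adjusted p = 0.0075, SE 0.345), a call lost in 3 of 25 alternatives. Il2rg, the shared chain of the Il7 and Il15 receptors, rose at 8 h in RelA-TA-KI (2.16, adjusted p = 0.0031, SE 0.50) and in WT (2.08, adjusted p = 0.012, SE 0.53). The call on Il2rg in WT was lost without untreated replicate 1 (1.60, adjusted p = 0.09) or 8 h replicate 2 (1.88, adjusted p = 0.074), within 9.6e-12 to 0.09 over 25 alternatives. Il7r rose in RelA-TA-KI at 8 h (1.81, adjusted p = 0.00093, SE 0.35) and stood at -0.05 in WT (SE 0.41), at 22.2 ± 9.95 CPM against 4.75 ± 1.82 CPM in WT (SD, n = 2 each). The genotype difference was 2.23 (adjusted p = 0.0011, SE 0.37) and the difference of responses 1.85 (adjusted p = 0.056, SE 0.54). Csf1r, at 247 ± 91.3 CPM in RelA-TA-KI and 189 ± 56.7 CPM in WT at 8 h, was not called. Csf1r, Csf2rb, Il2rg and Il7r are also expressed by macrophages. The 15 macrophage markers had a median genotype difference of 1.07 at 8 h with 1 called (15.9% of all genes were called). The part of macrophages in these values was not tested.

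**Figure D4:**
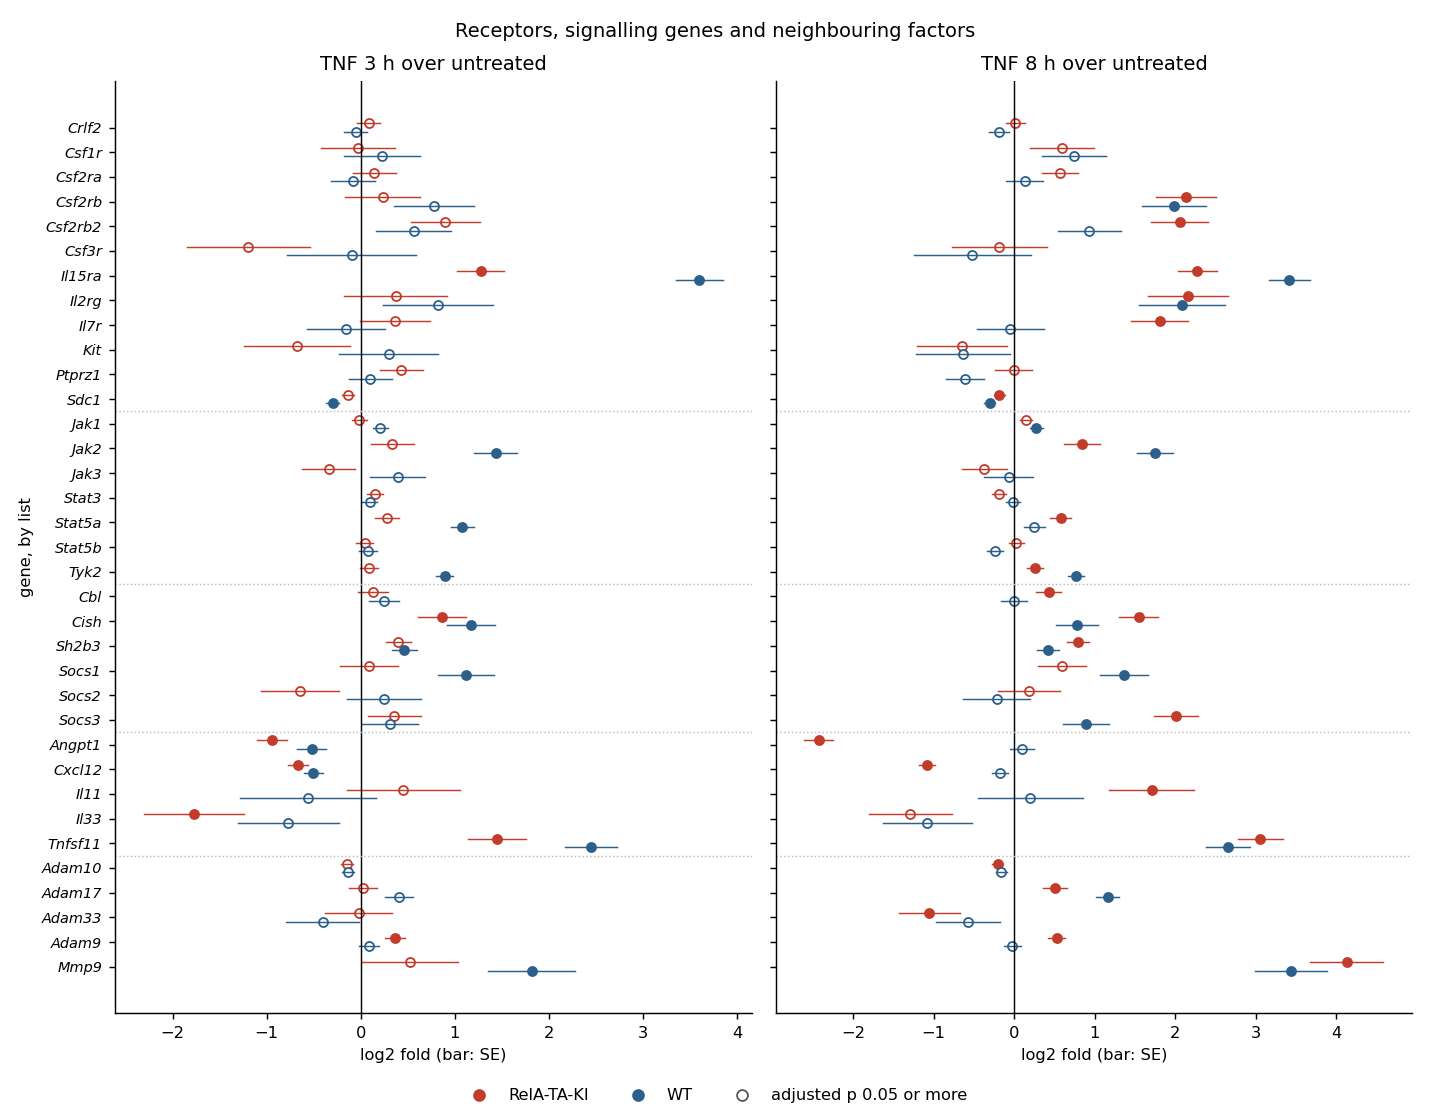
Log2 response to TNF at 3 h (left) and 8 h (right) for receptors, kinases and STATs, feedback inhibitors, other factors and sheddases tested (rows, lists split by dotted lines). Bars are SE, RelA-TA-KI is red and above WT in blue, and filled points have an adjusted p below 0.05. Il15ra at 3 h stands at 1.27 in RelA-TA-KI and 3.60 in WT, and Angpt1 at 8 h at -2.43 in RelA-TA-KI.

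Of 7 receptor kinases and STATs, 3 rose at 8 h in RelA-TA-KI (42.1% of all genes called) and 3 in WT (20.8% of all), and 3 rose at 3 h in WT (15.7% of all). Tyk2 at 8 h in RelA-TA-KI was a call lost in 16 of 25 alternatives (adjusted p 0.023 to 0.38). Those at 3 h in WT were Jak2 (1.43, adjusted p = 0.00055, SE 0.23), Stat5a (1.08, adjusted p = 3.7e-05, SE 0.12) and Tyk2 (0.89, adjusted p = 1.8e-05, SE 0.09), at 0.34, 0.28 and 0.08 in RelA-TA-KI. For Tyk2 the difference of responses was -0.81 at 3 h (adjusted p = 0.0089, SE 0.14). It was -0.67 without WT 3 h replicate 2, -0.79 without RelA-TA-KI 3 h replicate 1 and -0.75 without the untreated RelA-TA-KI replicate 2 (adjusted p = 0.05, 0.058 and 0.059, 0.00034 to 0.1 over 25 alternatives). Of 6 feedback inhibitors of cytokine receptors, 4 rose at 8 h in RelA-TA-KI and 4 in WT, against the same shares of all genes. In WT the calls on Cish, Sh2b3 and Socs3 were lost in 17, 11 and 9 of 25 alternatives (adjusted p up to 0.32, 0.17 and 0.34), and in RelA-TA-KI that on Cbl in 9 (up to 0.18). Socs3 rose in RelA-TA-KI at 8 h by 2.01 (adjusted p = 4.6e-05, SE 0.27) and Cish, a target of STAT5, by 1.55 (adjusted p = 0.00017, SE 0.24). Socs1 rose in WT at 8 h by 1.37 (adjusted p = 0.0042, SE 0.30), a call kept in all 25 alternatives. Of 5 other haematopoietic or lymphoid factors tested, 2 rose and 2 fell at 8 h in RelA-TA-KI (42.1% of all genes called), and 1 rose in WT (20.8% of all). The rise of Il11 in RelA-TA-KI was a call lost in 4 of 25 alternatives (adjusted p 0.007 to 0.1). At 3 h Il33 fell in RelA-TA-KI (-1.77, adjusted p = 0.033, SE 0.53), a call lost in 3 of 25 alternatives. Tnfsf11 (RANKL), which acts with Csf1 in osteoclast formation, rose at 8 h by 3.06 in RelA-TA-KI (adjusted p = 1.5e-06, SE 0.28) and by 2.66 in WT (adjusted p = 1e-05, SE 0.28). Angpt1, a ligand of the receptor Tek, stood at 8.56 ± 1.76 CPM in RelA-TA-KI and 45.9 ± 6.56 CPM in WT at 8 h (SD, n = 2 each). Its difference of responses was -2.52 (adjusted p = 5.4e-05, SE 0.23), and that of Cxcl12, which retains haematopoietic progenitors in marrow, was -0.91 (adjusted p = 0.0025, SE 0.14). Kitl, Angpt1 and Cxcl12 stood lower in RelA-TA-KI than in WT at 8 h of TNF, where 15.9% of all genes were called between genotypes. The Kitl call was lost in 5 of 25 alternatives. Of the same list of other factors, Tnfsf11 and Il11 rose in RelA-TA-KI at 8 h (3.06 and 1.71). Of 5 proteases that release membrane ligands, 3 rose and 2 fell at 8 h in RelA-TA-KI, and 2 rose in WT, on these same backgrounds. The falls were those of Adam10 and Adam33, lost in 5 and 4 of 25 alternatives (adjusted p up to 0.14 and 0.17). Mmp9 rose by 4.13 in RelA-TA-KI (adjusted p = 8.6e-06, SE 0.46) and by 3.43 in WT (adjusted p = 8e-05, SE 0.45). Adam17 rose by 0.51 in RelA-TA-KI (adjusted p = 0.013, SE 0.15) and by 1.16 in WT (adjusted p = 6.2e-05, SE 0.15). The value in RelA-TA-KI was 0.46 without untreated replicate 1 (adjusted p = 0.081) and 0.35 without 8 h replicate 2 (adjusted p = 0.14), within 7.7e-07 to 0.14 over 25 alternatives.

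Over the 20 TNF libraries, the genes whose log2 CPM ran most like each cytokine were sought among 12026 genes, as a description. The libraries share treatments and genotypes, so a high correlation of 2 genes answering to TNF is common. Csf1 ran closest to Tnfaip2 (Pearson r 0.979), Nfkbie (0.974), which encodes an inhibitor of NF-kB, and Icam1 (0.970), an adhesion molecule, with r of 0.925, 0.971 and 0.964 over the 18 libraries of the other table. Il34 ran closest to Mapk11 (0.958), Parp8 (0.954) and Ccdc25 (0.95). Tslp ran closest to Angptl4 (0.932), Ampd3 (0.925) and Ggct (0.918), of which Ampd3 did not follow it in the other table (0.115). Kitl ran closest to Mettl7a1 (0.972), Boc (0.967) and Gpsm2 (0.967), and r with Boc was 0.229 in the other table. Csf2, low in counts, ran closest to Ppp1r18 (0.889), Sele (0.886), the endothelial selectin, and Zfp622 (0.875), the last at -0.084 in the other table. Il7 (Ass1 at 0.823, Rprm at 0.817, Trmt10a at 0.809) and Il15 (Mb21d2 at 0.770, Steap4 at 0.745, Pde4a at 0.739) had the loosest partners, and r of Il7 with Rprm was -0.079 in the other table. The remaining pairs had r of 0.567 to 0.914 there, beside those given for Csf1.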

How the data were processed

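RNA of 38 MEF samples in 28 groups (10 of 2 samples, 18 of 1) was sequenced. The 2 deposited tables hold whole-number counts of reads per gene, which the submitters name as not normalized, of 45706 genes, of which 45143 have a symbol. Per the labels' protocols the libraries were stranded and made from poly(A) RNA. The submitters' processing notes name cutadapt 1.9.1, STAR, featureCounts 1.4.6, DESeq2 and the mm10 build, and the strand setting and the treatment of reads with several matches are not given in the sources used here. The depth of 6.72 to 9.59 M counts per library limits Csf2 and Csf3, whose intervals and floors of 3 counts cover counting error only.

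Counts were tested with edgeR 4.0.16 in R 4.3.3 (TMM scaling, filterByExpr, quasi-likelihood F test, Benjamini-Hochberg at 0.05 over all genes tested), with SE as the absolute log2 fold over the square root of F. All 20 TNF libraries shared one fit of 10 groups. The 18 LPS and Poly(I:C) libraries were fitted with condition and genotype as additive terms (8 residual degrees of freedom). Genotype differences over the LPS times, over the Poly(I:C) times and between these came from a second fit. It had condition and a separate genotype term for untreated, LPS and Poly(I:C) libraries (6 residual degrees of freedom). Log2 ratios of single libraries used a prior count of 2. Scripts were tested on simulated data. The alternatives were DESeq2 1.42.0, total count scaling, no filter, only the groups of a contrast, the replicate block, and each library or condition left out. The binomial intervals were added after the counts were seen. All 8 genes are named. Of the gene lists, those called in the difference of TNF responses or with an absolute log2 fold of at least 1 in a called TNF response are named. At most 4 are named by this rule per list and comparison, besides others quoted for their values. The 3 genes most correlated with each cytokine tested with TNF are also named. The genes, lists and tests were chosen with earlier results of these data known. The labels do not say that replicate numbers pair samples. Deviations of same-numbered TNF libraries correlated at 0.161 to 0.37 within RelA-TA-KI and 0.161 to 0.529 within WT (10 pairs of times each), where Xist and Ddx3y also followed the number, and at 0.00558 to 0.338 between genotypes (25 pairs). The block therefore stands beside the results it changes.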

Additional observations from a re-analysis of the deposited data

Results flagged for a closer look

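The response to TNF differed between the genotypes, by the test of the difference itself (edgeR quasi-likelihood, adjusted over all genes), for Csf1 and Kitl. They were 2 of the 7 cytokine genes tested, and Csf3 had too few counts for a test. RelA-TA-KI minus WT for Csf1 was -1.58 at 1 h (log2, 0.311% of all genes called) and -1.42 at 3 h (0.932% of all). For Kitl it was -0.57 at 8 h (6.87% of all), a call that 17 of 25 alternatives lost.

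Among the related genes the same test picked out Il15ra at 3 h (-2.33), Angpt1 at 8 h (-2.52), Cxcl12 at 8 h (-0.91), Tyk2 at 3 h (-0.81) and 8 h (-0.51), and Adam9 at 8 h (0.55). The call on Tyk2 at 8 h was lost in 16 of 25 alternatives and that on Adam9 in 13 of 25.

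With TMM scaling the log2 response of Kitl also had opposite signs in the 2 genotypes in single libraries, a difference that was not tested. At 3 h of LPS Kitl stayed near its untreated level in RelA-TA-KI (log2 0.06) and fell in WT (-1.40), a difference of 1.46. At 8 h of Poly(I:C) the log2 response was 0.33 in RelA-TA-KI and -0.87 in WT, a difference of 1.2. With total count scaling both genotypes were below their untreated libraries, at -0.37 in RelA-TA-KI and -1.92 in WT at 3 h of LPS and at -0.29 in RelA-TA-KI and -1.22 in WT at 8 h of Poly(I:C).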

How the results depend on the processing

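Of 69 called results on the 8 genes, 50 kept their call and direction under every alternative run, 19 lost the call under at least 1, and 0 reversed. Of 77 called results on the receptors, signalling genes and other listed genes, 37 were kept under every alternative and 0 reversed. Of 46 single-library ratios past the fold, 45 stayed past it with another prior count or with total count scaling. The LPS calls on Csf2 and Csf3 rest on few counts and few libraries, and depth limits both genes in the TNF table. The cause of the lost calls was not tested.

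Without a filter on low counts the number of the 8 called became 3 for RelA-TA-KI at 0.5 h of TNF, 1 for WT at 0.5 h, 1 for RelA-TA-KI at 1 h, 2 between untreated genotypes, 2 between genotypes at 0.5 h, 1, 2 and 3 for the difference of responses at 0.5, 1 and 3 h, 1 for WT from 3 to 8 h, and 4 for LPS minus Poly(I:C) at 3 h. Total count scaling gave 1 for RelA-TA-KI at 1 h and 2 for the difference of responses at 3 h. With only the groups of the contrast there was 1 between genotypes at 3 h and 0 for the difference at 8 h. DESeq2 gave 0 for that difference (820 of all genes called) and 1 between genotypes over 9 conditions (2224 of all genes called). The share of all genes called also moves with the setting, as from 1.07% to 12.4% with the replicate block for RelA-TA-KI at 0.5 h. For the settings besides DESeq2 and the block that share is not given here. The counts under those settings are thus not a result about these genes. Smaller moves in the number called are left out for them.

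With the replicate block the number called was 2 for RelA-TA-KI and 1 for WT at 0.5 h, 1 for RelA-TA-KI at 1 h, 1 between untreated genotypes, 1 between genotypes at 0.5 h, 2 and 3 for the difference of responses at 1 and 3 h, and 5 for RelA-TA-KI and 2 for WT from 3 to 8 h. The shares of all genes for these are given in the results. It was 4 for WT at 1 h (8.68% of all genes) and 6 at 3 h (25.7% of all), where Csf2 was added (edgeR adjusted p = 0.02, against 0.075 without the block). Between genotypes it was 3 at 1 h (3.93% of all), 4 at 3 h (8.73% of all) and 5 at 8 h (27.4% of all).

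Leaving out 1 library or condition gave 0 to 1 for RelA-TA-KI and 1 to 3 for WT at 1 h of TNF, 1 to 3 between genotypes at 1 h and 2 to 4 at 8 h, 1 to 2 for the difference of responses at 1 h, 1 to 2 at 3 h and 0 to 1 at 8 h, 1 to 4 between genotypes over 9 conditions, 1 to 4 over the LPS times, and 2 to 4 for LPS minus Poly(I:C) at 3 h.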
